A study of Homo sapiens with 9 samples.

Results

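Hi-C contacts were examined around 6 collagen genes of IMR90 cells, a widely distributed strain of human diploid lung fibroblasts with a finite lifespan, in growing cells and in RAS-induced senescence (RIS). The genes were COL1A1, COL1A2, COL3A1, COL5A2, COL4A1 and COL4A2, taken by name out of 19812 protein-coding genes with a start site on chromosomes 1 to 22 and X. Every bin of 40 kb within 1 Mb of a member was included, which gave 220 of 77404 bins at 4 loci. All cells carried a retrovirally delivered ER:HRAS(G12V) construct, an oestrogen receptor fused to the G12V form of HRAS. The 3 growing Hi-C libraries had no 4-hydroxytamoxifen (4OHT), and growing replicate 3 also carried an MSCV vector. The 2 RIS Hi-C libraries came from cells given 100 nM 4OHT for 6 days. Capture Hi-C, in which baits enrich chosen regions, added 2 growing and 2 RIS libraries with the same construct and treatment. The study calls them matching libraries, so they may share cultures with the Hi-C libraries and are not taken as independent. Capture values are given here for COL1A2.

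Collagens are trimers of coiled chains that form the scaffold of connective tissue. COL1A1 and COL1A2 encode the chains of type I collagen, the main fibril of skin, bone and lung stroma. COL3A1 encodes type III collagen and COL5A2 a chain of type V collagen, which is built into the same fibrils. COL4A1 and COL4A2 encode chains of type IV collagen, the network of basement membranes. Fibroblasts are the main source of the fibrillar chains. A gene's contacts in Hi-C say which stretches of the chromosome lay close to it when the cells were fixed, and give no RNA level, so neither RAS induction nor fibroblast markers could be checked in these files.

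In hg19, COL1A1 (ENSG00000108821) lies at chr17:48261462-48278992 on the minus strand and COL1A2 (ENSG00000164692) at chr7:94024207-94060539 on the plus strand. COL3A1 (ENSG00000168542) lies at chr2:189839099-189877472 on the plus strand and COL5A2 (ENSG00000204262) at chr2:189896624-190044487 on the minus strand. COL4A1 (ENSG00000187498) lies at chr13:110801310-110959504 on the minus strand and COL4A2 (ENSG00000134871) at chr13:110959631-111165556 on the plus strand. COL4A1 and COL4A2 start 127 bp apart and head away from each other, so they share 1 promoter bin. The 6 genes therefore have 5 promoter bins. The length of the genes ranged from 17.5 kb for COL1A1 to 206 kb for COL4A2, and the number of bins touched from 1 to 7. COL1A1 lies within 1 bin and has no value for contacts across its own body.

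The sequences in front of COL1A2 and between the type IV genes are shown because they adjoin the gene starts, which set the promoter bin of each profile. The reference is GRCh37, and each sequence is written 5′ to 3′. The first lies on the plus strand at chr7:94024087-94024206, and the second is the plus strand of the whole stretch between the COL4A1 and COL4A2 starts, chr13:110959505-110959630. Capitals mark the TATA box letters TATAAA, the box named after its letters CCAAT, and the GC box letters GGGCGG, searched on both strands, and these matches did not overlap here.
COL1A2 promoter: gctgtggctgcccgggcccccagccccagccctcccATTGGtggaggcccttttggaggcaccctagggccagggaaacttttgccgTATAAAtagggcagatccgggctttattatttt
COL4A1/COL4A2 interval: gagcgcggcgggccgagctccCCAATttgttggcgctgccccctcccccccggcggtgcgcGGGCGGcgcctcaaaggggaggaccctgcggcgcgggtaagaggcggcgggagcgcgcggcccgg
The COL1A2 window held TATAAA, which 6.04% of 19812 promoter windows of 120 bases held, and CCAAT on the strand opposite to the printed one, against 23.4% of windows. The type IV interval of 126 bases held CCAAT and GGGCGG, the latter against 49.2% of the windows of 120 bases. The 120 bases before COL3A1 and before COL5A2 held none of these motifs. A match describes the letters alone.

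Depth was recovered from the balanced values (see the processing notes) and ranged from 109967509 to 180775315 contacts per Hi-C library. The capture libraries held 68884855 to 171654346 contacts. Of the Hi-C contacts, 92.4% to 93.0% lay within a chromosome in the growing cells against 90.2% to 90.4% in RIS. The dangling-end share that the study tabulates also separated the conditions. The part of either in the results was not tested. With 3 growing and 2 RIS libraries an exact permutation test cannot give a p below 0.1, so single values were tested in a model across all features of the genome. The study calls its replicates biological, and p-values measure the spread between these libraries.

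The measures were taken for each bin on a log2 scale. Contact within the bin, near contact at 80 to 200 kb and far contact at 240 kb to 1 Mb are means of observed over expected contacts, where the expected value is the mean at the same distance on the chromosome. An insulation score is the mean contact across a bin within 520 kb on either side, relative to the chromosome. A low score means that few contacts passed over the bin. Differences are RIS minus growing, and a call needs an adjusted p below 0.05 over all bins tested.

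**Figure D1:**
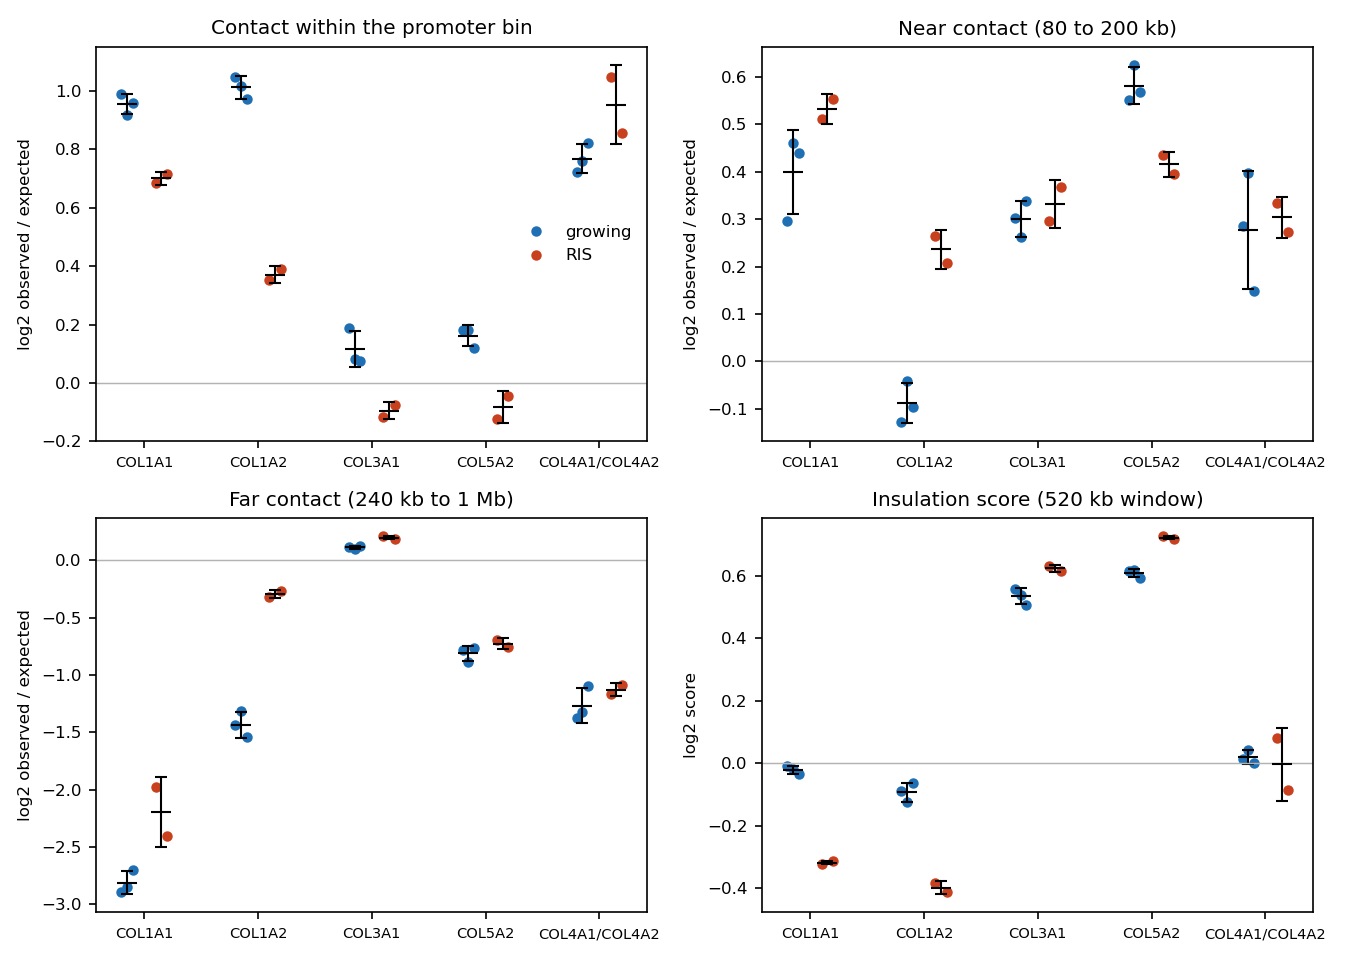
Each point is 1 Hi-C library (3 growing, blue, and 2 RIS, red) at the 5 promoter bins, with log2 values on the vertical axes, and black bars give the mean and SD. Far contact of the COL1A2 bin was -1.43 in growing cells against -0.30 in RIS, the widest gap of the far contact panel.

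Among the 5 promoter bins, COL1A2 differed most in far contact. Its promoter bin at chr7:94000001-94040000 had less contact with itself and its adjacent bins in RIS cells, and more contact at 240 kb to 1 Mb. Far contact was -1.44, -1.32 and -1.54 in the growing cells against -0.32 and -0.27 in RIS. The groups did not overlap, and the difference was 1.14 (SE 0.10, adjusted p = 0.00039), a 2.20-fold rise. It ranked 14 by size among 67558 bins, of which 27.9% were called. By the study's duplicate rates the libraries form 2 classes, and the rise was 1.06 between libraries with few duplicates and 1.27 between those with many, and it was called under each of the alternatives run, with a range of 0.91 to 1.33.

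The same bin gave smaller differences in the other measures. Near contact was -0.13, -0.04 and -0.10 in growing cells against 0.27 and 0.21 in RIS, a difference of 0.32 (SE 0.05, adjusted p = 0.0045) beside 23.4% of all bins called. Contact within the bin was 1.05, 1.02 and 0.97 in growing cells against 0.35 and 0.39 in RIS, which did not overlap. That difference was -0.64 (SE 0.06, adjusted p = 0.012), beside 11.0% of bins called. It lost its call without HiC growing replicate 1 or without HiC RIS replicate 1, with differences near -0.62 in either case. Within 1 Mb of the gene, contact within the bin was called lower in 14 of 52 bins and higher in none, beside 6.55% of all bins called lower. The insulation score of the promoter bin was -0.09, -0.12 and -0.06 in growing cells against -0.38 and -0.41 in RIS, a difference of -0.30 (SE 0.04, adjusted p = 5.71e-05) where 58.4% of all bins were called. With a 1 Mb window the score differed by 0.02 and was not called.

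As shares of all balanced contacts of the COL1A2 bin, contacts within it were 29.6%, 28.1% and 30.4% in growing cells against 17.4% and 20.5% in RIS. Contacts at 240 kb to 1 Mb were 9.21%, 9.41% and 7.97% in growing cells against 15.2% and 15.3% in RIS. The first share was lower and the second higher in both RIS libraries, each with an exact permutation p of 0.1, the smallest possible. The far values rested on 426 to 668 recovered contacts per library.

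**Figure D2:**
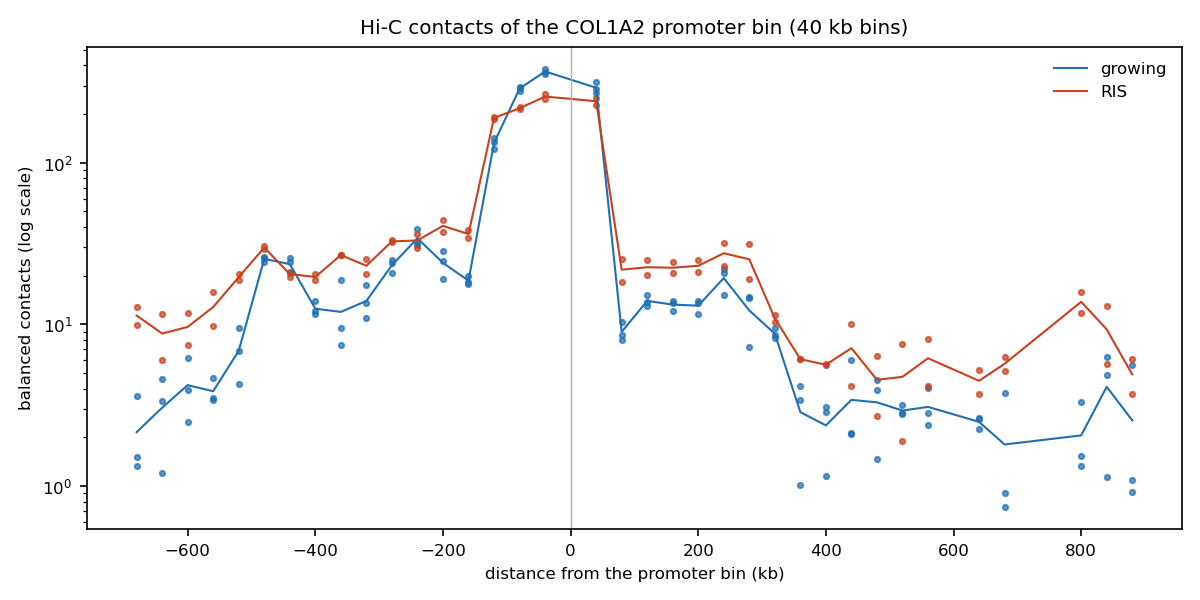
Balanced Hi-C contacts of the COL1A2 promoter bin (vertical, log scale) with each tested bin of 40 kb by distance (horizontal, kb), with points for libraries and lines for group means. The RIS line lies below the growing line at 40 kb on either side and at 80 kb before the promoter, and above it at most larger distances.

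Of the partner bins within 1 Mb, 36 had enough contacts to be tested with the COL1A2 promoter. With limma, 32 were higher and 4 lower in RIS cells, and none was called. Pairs were kept by their mean over all Hi-C libraries. A partner with few growing contacts could thus enter through RIS alone, and could then only be higher. The bin 800 kb after the promoter held 1.54, 1.32 and 3.30 balanced contacts in growing cells against 11.7 and 15.9 in RIS. The balance of directions is therefore no test. Over all tested pairs, 9.58e-05% were called. These reach 2 Mb, while the partners lie within 1 Mb, so the shares come from unlike ranges of distance. Of the 36 partners, 24 had an unadjusted p below 0.05, the bin at 800 kb among them, beside 11.3% of all pairs. The 3 partners with the smallest p lay in front of the gene. The bin 40 kb away held 381, 365 and 356 balanced contacts in growing cells against 247 and 266 in RIS (difference -0.57, SE 0.06, adjusted p = 0.088). The bin 80 kb away held 279, 292 and 291 in growing cells against 215 and 220 in RIS (difference -0.45, adjusted p = 0.21). Both fell below every growing library. The bin 120 kb away held 134, 141 and 122 in growing cells against 185 and 193 in RIS (difference 0.50, adjusted p = 0.27), above every growing library.

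A count-based fit, voom on the recovered contacts with the balancing factor of each pair, was added after the data were seen. It called 13 of the 36 partners, 10 higher and 3 lower, beside 0.510% of all pairs (0.334% higher and 0.176% lower). The 10 include the bins 680 kb before and 800 kb after the promoter, which passed the filter only through their RIS contacts. The 3 lower partners were the bins at 40 and 80 kb before and at 40 kb after the promoter bin. Leaving out 1 library gave 4 to 12 called partners, with 4 without HiC RIS replicate 2 and 5 without HiC RIS replicate 1. CASD1, a sialic acid acetyltransferase gene, starts in a partner bin 120 kb after the promoter, with 15.1, 12.9 and 13.8 balanced contacts in growing cells against 20.2 and 24.9 in RIS. That pair was not called by either fit. SGCE and PEG10, an imprinted pair, start 280 kb after it and were not called either (voom adjusted p = 0.068).

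Capture Hi-C gave the same promoter at 10 kb. The bin chr7:94020001-94030000 had 90 tested partners from 470 kb before to 490 kb after it. None was called by limma, beside 0% of all captured pairs, and 67 had an unadjusted p below 0.05, beside 16.7% of all captured pairs. Contacts were higher in RIS cells at 75 partners and lower at 15. The voom fit called 62, of which 51 were higher and 11 lower, beside 7.42% of all captured pairs (3.95% higher and 3.47% lower). It called 46 to 59 with 1 library left out.

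The capture profile split by distance. All 5 tested partners 20 to 60 kb before the promoter were lower in RIS cells, and voom called all 5. Their share of the tested contacts was 25.1% and 25.5% in growing cells against 18.5% and 19.2% in RIS. Of the 40 partners 70 kb or more after the promoter, all were higher and voom called 25. Their share was 6.33% and 6.22% in growing cells against 10.7% and 10.4% in RIS. Of the 39 partners 70 kb or more before it, voom called 26 higher and 2 lower. With 2 libraries against 2 the smallest exact permutation p is 0.333, which each share gave. These shares sum to a fixed total, so a rise in one goes with a fall in others. In the 40 kb bin where SGCE and PEG10 start, voom called the capture partners at 270, 280 and 290 kb higher (adjusted p = 5.2e-05, 0.0033 and 0.011). None of these 10 kb bins holds a start of either gene, and the remaining 10 kb bin was not tested. In the 40 kb bin of CASD1, the partners at 100 and 120 kb were called higher by voom and those at 110 and 130 kb were not called. CASD1 itself starts in the bin at 110 kb (voom adjusted p = 0.072).

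A peak of contact stood 100 kb before the COL1A2 promoter, at chr7:93920001-93930000. It held 4929 and 4915 scaled contacts in growing cells against 4023 and 4336 in RIS (voom difference -0.33, SE 0.07, adjusted p = 0.0041). The next bin outward, at 110 kb, held 1804 and 1951 in growing cells against 2886 and 2889 in RIS (voom difference 0.56, SE 0.05). Neighbouring bins on either side of this edge thus differed in opposite directions. This peak was singled out after its values were seen.

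**Figure D3:**
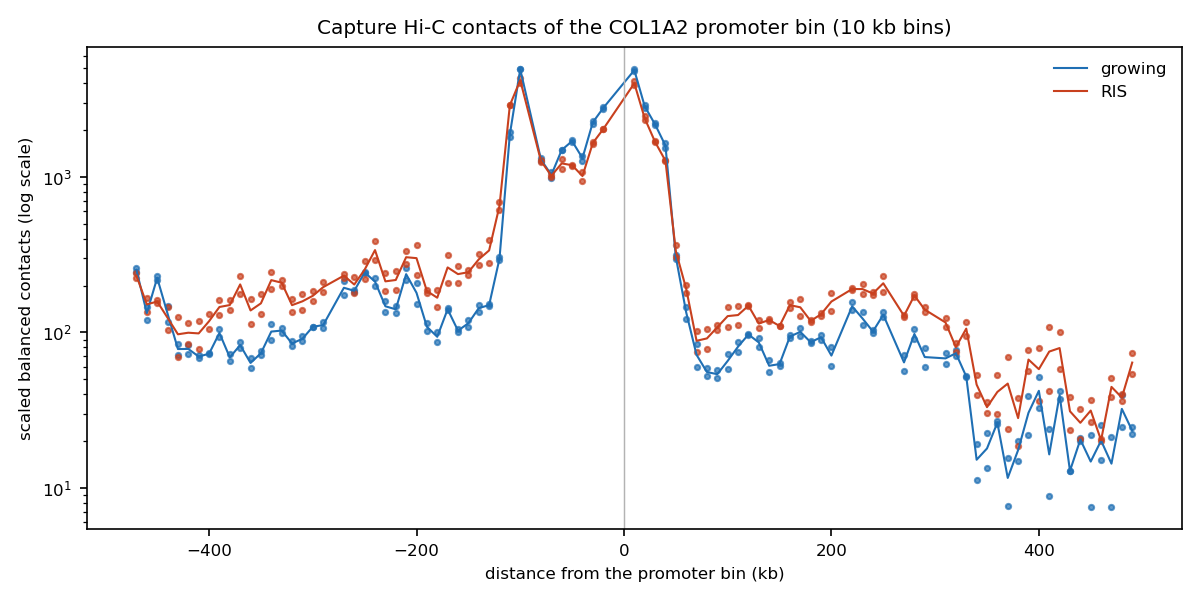
Scaled capture Hi-C contacts of the 10 kb COL1A2 promoter bin (vertical, log scale) with each tested bin by distance (horizontal, kb), with 2 growing (blue) and 2 RIS (red) libraries as points and group means as lines. RIS cells lie lower between 20 and 60 kb before the promoter and higher at all 40 partners from 70 kb after it.

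In bins at 80 and 40 kb before the promoter bin far contact differed by 0.49 and 0.77, and in the next bin, which holds the end of the gene, by 0.46, all called. Far contact was called higher in 8 of 52 bins within 1 Mb, beside 12.7% of all bins, and the other 4 lay 520 to 680 kb before the promoter bin, with differences of 0.19 to 0.22. At 80 kb after the promoter bin it was -0.03 and not called. At 160 to 360 kb before it far contact was lower in RIS cells in all 6 bins, each called, with differences of -0.36 to -0.21. In the whole window far contact was called lower in 7 of 52 bins, beside 15.2% of all bins called lower. In growing and in RIS cells the promoter lay in the same domain of 160 kb, chr7:93880001-94040000, with no other protein-coding gene start. Contact of the gene with the rest of that domain was 1.27, 1.32 and 1.37 in growing cells against 1.06 and 1.05 in RIS (difference -0.27, exact permutation p = 0.1, the smallest possible). The gene ends beyond this domain, so these 6 pairs include its outer bin, chr7:94040001-94080000, a border in both conditions. The insulation score of that bin was -0.55, -0.60 and -0.52 in growing cells against -0.75 and -0.78 in RIS (difference -0.21, adjusted p = 0.0022).

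COL1A1, which encodes the other chain of type I collagen, also had a lower insulation score in RIS cells. The score of its promoter bin, chr17:48240001-48280000, was -0.01, -0.02 and -0.03 in growing cells against -0.32 and -0.31 in RIS. The difference was -0.30 (SE 0.04, adjusted p = 4.29e-05) and was called under every alternative run. Far contact was -2.89, -2.85 and -2.70 in growing cells against -1.98 and -2.41 in RIS, which did not overlap but missed the threshold (difference 0.62, adjusted p = 0.0504). It rested on 44 to 67 recovered contacts per library. When the range was extended to 2 Mb the difference turned to -0.32. It was 0.40 without HiC RIS replicate 1 and 0.83 without HiC RIS replicate 2, the latter called (adjusted p = 0.029), as it was on recovered contacts (adjusted p = 0.024) and without the trend (adjusted p = 0.012). Near contact differed by 0.13 and was not called (adjusted p = 0.11), and was 0.08 without HiC growing replicate 1. It was called under 3 of 12 alternatives, with 0.35 on recovered contacts (adjusted p = 0.0022), 0.22 at 80 to 400 kb and 0.20 with the expected value over all chromosomes. Contact within the bin fell by 0.25 (adjusted p = 0.035), lost its call without any 1 of the 5 libraries, with the replicate block and with the expected value over all chromosomes, and differed by 0.12 on recovered contacts.

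COL1A1 had 19 tested partners, of which limma called none, 11 had an unadjusted p below 0.05, and voom called 2 (1 without either RIS library), beside 11.3% and 0.510% of all pairs. Some of the 11 passed the filter only through RIS, such as the bin 240 kb downstream. It held 0, 5.58 and 0 balanced contacts in growing cells against 15.4 and 7.04 in RIS. The bin 160 kb upstream, where XYLT2 starts, a xylosyltransferase of proteoglycan synthesis, held 40.5, 62.5 and 57.7 balanced contacts in growing cells against 112 and 96.3 in RIS. Both RIS libraries lay above all growing ones (voom difference 0.98, SE 0.19, adjusted p = 0.0019). The bin 40 kb upstream of the promoter bin held 468, 437 and 403 in growing cells against 369 and 302 in RIS, lower in both RIS libraries (voom difference -0.48, SE 0.09, adjusted p = 0.0013). The bin 80 kb downstream, where the pyruvate dehydrogenase kinase gene PDK2 starts, held 110, 104 and 103 in growing cells against 141 and 137 in RIS, and was not called (limma adjusted p = 0.31).

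The domain around COL1A1 was 440 kb long in growing cells, chr17:48080001-48520000, and held 11 other protein-coding starts, among them ITGA3, PDK2 and XYLT2. In RIS cells borders at chr17:48160001-48200000 and chr17:48440001-48480000 enclosed 280 kb. The insulation score of the first was -0.47, -0.54 and -0.50 in growing cells against -0.89 and -0.91 in RIS (difference -0.40, adjusted p = 3.43e-05). The score of the second differed by -0.12 and was not called. Borders were found by a prominence of 0.1, and each of these 2 was also found within 1 bin in 1 growing library. The growing border at chr17:48080001-48120000 was found in 2 of 3 growing libraries and in no RIS library. Its score was -0.55, -0.54 and -0.56 in growing cells against -0.65 and -0.70 in RIS, lower in RIS (difference -0.13, adjusted p = 0.021). The growing border at chr17:48520001-48560000 was found in all 3 growing libraries and in no RIS library. Its score differed by 0.15 and was not called (adjusted p = 0.12). Relative to the bins within 1 Mb, the 2 scores differed by -0.16 (adjusted p = 0.0034) and 0.21 (adjusted p = 0.024).

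**Figure D4:**
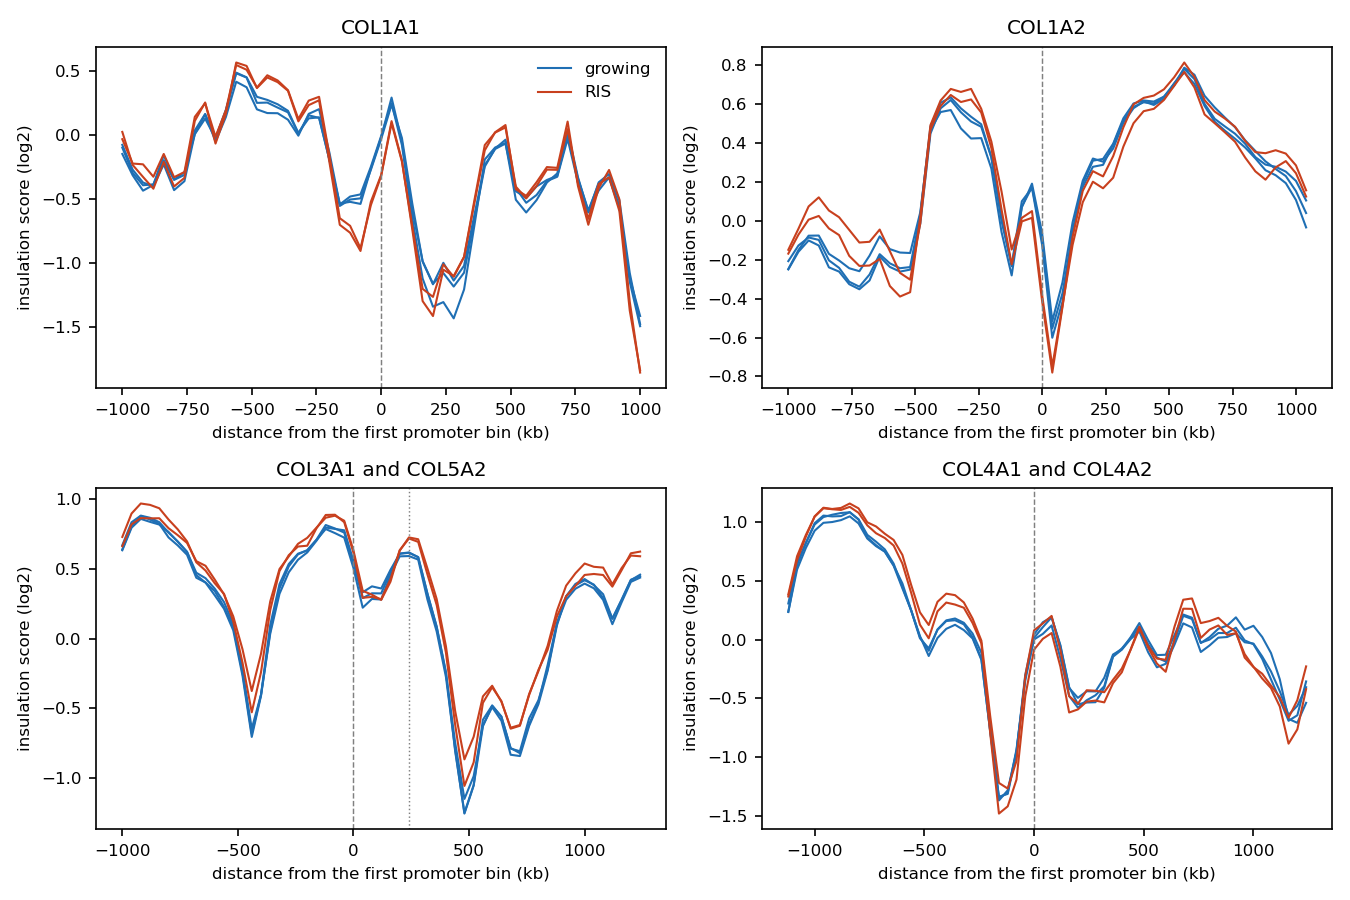
Insulation scores (vertical, log2) of the bins within 1 Mb of each locus by distance from the first promoter bin (horizontal, kb), 1 line per Hi-C library, with dashed lines at the first promoter bin and a dotted line at COL5A2. At the type I promoters the 2 RIS lines lie about 0.30 below the growing lines.

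COL3A1 and COL5A2 are neighbours on chromosome 2. The insulation score of the COL3A1 promoter bin was 0.56, 0.54 and 0.51 in growing cells against 0.63 and 0.62 in RIS (difference 0.09, adjusted p = 0.014). That of the COL5A2 promoter bin was 0.62, 0.62 and 0.59 in growing cells against 0.73 and 0.72 in RIS (difference 0.11, adjusted p = 0.0023). The COL3A1 call was lost on recovered contacts, without HiC RIS replicate 1 and with the replicate block, and the COL5A2 call on recovered contacts. Relative to the bins within 1 Mb, an alternative added after the data were seen that called 43.9% of all bins, the differences were -0.02 and -0.01 and neither was called. In the window around these genes 42 of 57 bins were called higher and none lower, beside 33.0% of all bins called higher. Contact within the bin differed by -0.21 at COL3A1 and -0.24 at COL5A2, both called and both lost without any 1 of the 5 libraries and with the replicate block. The COL3A1 call was also lost on recovered contacts and with the duplicate class as a block. Far contact was called at neither promoter, with differences of 0.09 at COL3A1 and 0.08 at COL5A2. The latter was 0.05 without HiC growing replicate 2 or without HiC RIS replicate 1, and was called at 0.34 when the range reached 2 Mb (adjusted p = 0.011). In the window around both genes far contact was called higher in 24 of 57 bins and lower in none, beside 12.7% of all bins called higher. In the same bins contact within the bin was called lower in 25 of 57 and higher in none, beside 6.55% of all bins called lower.

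Near contact of the COL5A2 promoter was 0.55, 0.63 and 0.57 in growing cells against 0.43 and 0.40 in RIS, lower in both RIS libraries (difference -0.17, SE 0.05, adjusted p = 0.028). Its call was lost under 6 of 12 alternatives, among them every omission of a RIS library, and between 80 and 400 kb the difference was -0.00053. Voom called 1 of 38 partners, the bin 80 kb into the gene from the promoter. It held 156, 161 and 163 balanced contacts in growing cells against 109 and 133 in RIS (voom difference -0.40, SE 0.10, adjusted p = 0.045). At COL3A1 voom called 1 of 44, the bin 40 kb before the promoter bin, with 376, 423 and 400 in growing cells against 313 and 359 in RIS (voom difference -0.31, SE 0.06, adjusted p = 0.0038). Neither was called without a RIS library, and the COL5A2 pair also not without HiC growing replicate 2 or 3. With limma none was called at either promoter, and 1 partner of COL3A1 and 9 of COL5A2 had an unadjusted p below 0.05, beside 11.3% of all pairs and 0.510% called by voom. The COL5A2 partner with the smallest limma p was the bin 120 kb into the gene, which held 96.5, 95.5 and 93.7 in growing cells against 59.0 and 71.9 in RIS, lower in both RIS libraries and called by neither fit (limma difference -0.52, SE 0.12, adjusted p = 0.31). The bin 80 kb into the gene ranked next, and the third was the bin at 400 kb where SLC40A1 starts, which encodes the iron exporter ferroportin, with a difference of 0.81 (limma adjusted p = 0.38). At COL3A1 the bins at 280 kb after and before the promoter bin followed by p, with differences of 0.57 and -0.28, neither called.

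Contact between the 2 genes was tested on its own. Mean contact of the COL3A1 bins with the COL5A2 bins was -0.50, -0.54 and -0.64 in growing cells against -0.66 and -0.72 in RIS (difference -0.13, exact permutation p = 0.2), lower in both RIS libraries without reaching the smallest possible p. In growing cells a border lay at chr2:189840001-189880000, over COL3A1, and in RIS cells at chr2:189920001-189960000, 80 kb further on and within COL5A2. Each was found in every library of its own group and within 1 bin in none of the other. Both were minima above the chromosome mean, with a mean score of 0.28 in growing cells at the first and 0.28 in RIS at the second. The outer borders of these domains had -0.68 and -1.22 in growing cells and -0.45 and -0.96 in RIS. The insulation scores at these bins overlapped between groups, and relative to the bins within 1 Mb only the second differed (difference -0.16, adjusted p = 0.0014).

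COL4A1 and COL4A2 showed no called difference in near contact, far contact, contact within the bin or insulation at their shared promoter bin, chr13:110920001-110960000. Near contact was 0.29, 0.40 and 0.15 in growing cells against 0.33 and 0.27 in RIS, so the groups overlapped. Far contact was -1.38, -1.33 and -1.09 in growing cells against -1.17 and -1.09 in RIS, which also overlapped (difference 0.14, SE 0.11, adjusted p = 0.39). It was 0.08 without HiC growing replicate 1 and 0.23 without HiC growing replicate 3, not called in either case. The insulation score differed by -0.02 (SE 0.05), and by -0.17 with a 1 Mb window, which was called (adjusted p = 0.013). Contact within the bin was 0.72, 0.76 and 0.82 in growing cells against 1.05 and 0.86 in RIS, higher in both RIS libraries but not called (difference 0.19, SE 0.07, adjusted p = 0.12). It was 0.09 without HiC RIS replicate 1 and 0.28 without HiC RIS replicate 2, and was called on recovered contacts (0.45, adjusted p = 0.00032). None of 36 partners was called by limma or voom, 2 had an unadjusted p below 0.05 with limma, and the pair with the smallest p was the bin at 320 kb where NAXD starts, a metabolite repair enzyme (difference 0.66, limma adjusted p = 0.43). The bins at 480 and 120 kb followed, with differences of -1.41 and -0.20. Contact between the bodies of the 2 genes was 1.07, 1.10 and 1.07 in growing cells against 1.16 and 0.99 in RIS (exact permutation p = 1). Their domain, chr13:110760001-111120000, had the same borders in both conditions.

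**Figure D5:**
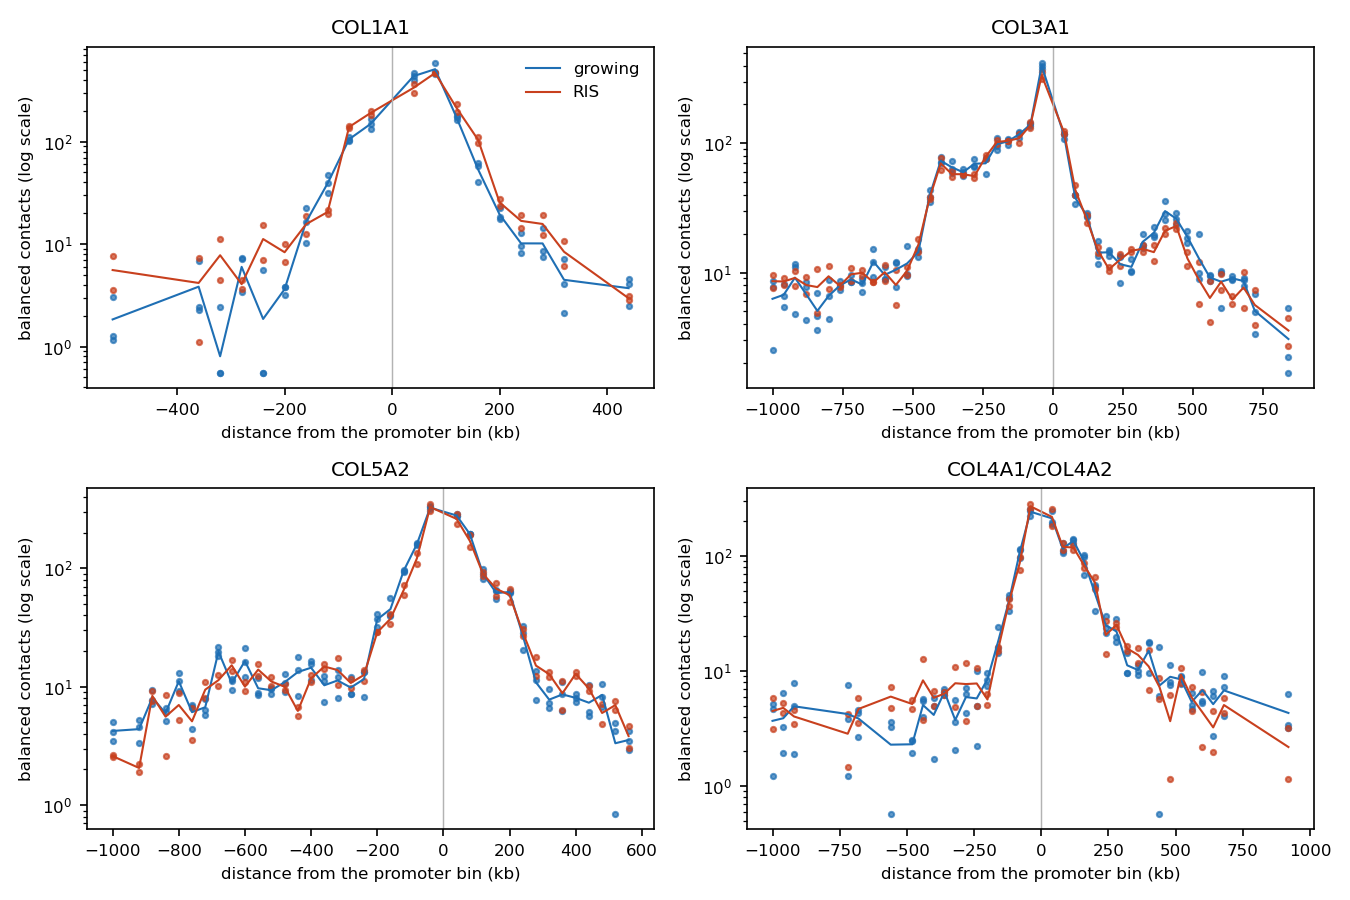
Balanced Hi-C contacts (vertical, log scale) of the COL1A1, COL3A1, COL5A2 and shared COL4A1/COL4A2 promoter bins by distance (horizontal, kb), with points for libraries, lines for group means and zeros drawn below the lowest positive value. The group lines cross repeatedly at COL3A1, COL5A2 and COL4A1/COL4A2, and the RIS line lies higher at COL1A1 from 160 to 320 kb on the positive (upstream) side of the axis.

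Contacts across a gene's own bins were measured for the 5 members that touch more than 1 bin. None was called by limma, beside 4.82% of 11016 genes. An unadjusted p below 0.05 was found for 2 of the 5, beside 3196 of the 11016 genes. COL1A2 and COL3A1 touch 2 bins each, so each value is the single pair of the promoter bin with the bin 40 kb after it. COL1A2 had 0.47, 0.62 and 0.38 in growing cells against 0.33 and 0.10 in RIS (difference -0.28, SE 0.09, adjusted p = 0.12). This is the same pair that voom called lower among the COL1A2 partners (voom adjusted p = 0.0089). COL5A2 had 0.18, 0.28 and 0.25 in growing cells against -0.04 and 0.11 in RIS (difference -0.20, SE 0.06, adjusted p = 0.095). Both were lower in each RIS library. The COL1A2 difference was -0.17 without HiC RIS replicate 2 and -0.03 on recovered contacts, and that of COL5A2 -0.13 without HiC RIS replicate 1. When only the 3055 genes that touch 4 bins or more were tested, COL5A2 and COL4A2 (difference 0.10) were called and COL4A1 was not, beside 41.3% of those genes. The differences of COL3A1 and COL4A1 were 0.08 and 0.03.

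The A/B score is the leading component of the contact map of a chromosome at 120 kb, in SD units, with positive values towards gene-rich chromatin. All promoter bins had positive scores in every library. The score was lower in RIS cells at COL1A2 (1.22 to 0.94, adjusted p = 0.0034), COL3A1 (1.34 to 1.11, adjusted p = 0.0047), COL5A2 (1.50 to 1.17, adjusted p = 0.00053) and COL4A1/COL4A2 (1.33 to 1.03, adjusted p = 0.0010). The COL3A1 call was lost without HiC RIS replicate 1. At COL1A1 the score was 1.14 in growing cells against 1.20 in RIS and not called, and the difference of 0.06 was 0.0093 without HiC growing replicate 3 and 0.10 without HiC growing replicate 1. Of all bins 53.3% were called, 31.7% as lower.

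A list of 71 other matrix genes, covering further collagen chains, enzymes of collagen synthesis and cross-linking, fibril partners, basement membrane components and collagen receptors, was tested at its promoter bins. Far contact was called higher at 6 and lower at 4 of 63 tested, near contact higher at 7 and lower at 5 of 67, and insulation higher at 11 and lower at 16 of 63. The shares were 15.9%, 17.9% and 42.9%, against 24.4%, 18.0% and 51.5% of all bins with a promoter. For contact within the bin, calls were higher at 3 and lower at 4 of 67 (10.4%), against 10.4% of bins with a promoter (7.75% higher and 2.61% lower). The list is counted by gene, and COL4A5 with COL4A6 (2 of these 4 lower calls) and COL4A3 with COL4A4 share a bin. Of all bins with a promoter, 13.5% were called higher and 10.9% lower in far contact, 11.4% and 6.57% in near contact, and 30.8% and 20.7% in insulation. Median differences of the list were -0.01 in far contact, -0.005 in near contact and -0.01 in insulation.

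The named genes are the 12 with the largest called difference in near contact, far contact or insulation. This choice did not use contact within the bin. Far contact of PLOD1, a lysyl hydroxylase, fell by 0.74 in RIS cells (adjusted p = 0.0020). That of COL11A2, a chain of cartilage type XI collagen, rose by 0.54 (adjusted p = 0.0021), and that of COLGALT1, a collagen galactosyltransferase, fell by 0.46 (adjusted p = 0.0026), while its near contact rose by 0.32 (adjusted p = 0.027). Far contact of DCN and LUM, small proteoglycans that bind fibrils, rose by 0.41 and 0.39. Far contact of ADAMTS2, which trims procollagen, fell by 0.32, while its insulation score rose by 0.07 and its contact within the bin by 0.31, both called. In near contact TLL1, a procollagen C-proteinase, fell by 0.42 and the basement membrane proteoglycan HSPG2 rose by 0.34. In insulation LAMA5, LAMB2, COL8A2 and PCOLCE fell by 0.45, 0.37, 0.37 and 0.32.

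Promoters on other chromosomes were ranked by their Euclidean distance to each member over near contact, far contact and insulation in the 5 libraries. The nearest to COL1A2 were DHX16 and PPP1R18, which share a bin and a distance of 1.95, against a median of 4.85 over 16232 genes. Their far contact differed by 0.29, less than the 1.14 of COL1A2. The nearest to COL1A1 were BTN3A2 and BTN2A2, also in 1 bin. Those of COL3A1 were IVNS1ABP and GRIA1, of COL5A2 NEDD9 and BCAR3, and of COL4A1/COL4A2 ARHGAP35 and USP49, at distances of 0.51 to 0.95.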

How the data were processed

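The deposited values are a signal: per the labels and methods, the authors mapped reads to hg19 using HiC-Pro, discarded artefacts and duplicate reads, counted each library on its own and balanced its matrix by ICE (bins of 40 kb, or 10 kb after capture). Balancing forces equal bin sums, so a lower share at one distance raises others. Undoing it with a factor for each bin gave whole contacts in 99.97% of low values or more (tolerance 0.05, in proportion above 10), used as depth and in voom. Scores were tested with limma 3.58.1 in R 4.3.3 (lmFit, eBayes with trend, Benjamini-Hochberg over all features). Pairs up to 2 Mb apart were tested likewise after loess, with a pseudocount of 0.5 and a minimum mean of 5 over all libraries. Fits were also run on simulated data, with the spread of pair counts fixed in advance, and no conclusion is drawn from them here. Borders were minima of the insulation score. The 6 members were described in full. Named partners were called pairs or, where none was called, the 3 with the smallest p, named matrix genes the 12 largest calls in near contact, far contact or insulation, and like genes the 2 nearest. CASD1, SGCE, PEG10 and voom-called partners fall outside this rule and were chosen after their values were seen. Members and lists were chosen with earlier results of these data known. Alternatives covered distance ranges, windows, scaling, pseudocounts, filters, blocks and each library left out. One promoter sequence is not reported here.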

Additional observations from a re-analysis of the deposited data

How the results depend on the processing

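Far contact of COL1A2 and insulation of COL1A1 kept their direction and call under every alternative run. Of 439 values of single loci under alternatives, 345 were classed as kept, 34 as weaker, 41 as stronger and 19 as turned, and the cause was not tested. These include numbers of called pairs at each promoter, which have no direction. Where none was called before and after, such a number was classed as kept, as in all 19 alternatives for the COL4A1/COL4A2 bin. Pairs of 40 kb bins gave 2 calls with limma, 4 without loess, 6 with a pseudocount of 2, 1205 without the trend, 24357 with voom on recovered contacts, 10646 with voom and balancing factors, and 0 with the replicate block. With 1 library left out, limma gave 0 to 8498 calls, and voom with factors gave 8853, 7834 and 8544 without HiC growing replicate 1, 2 or 3 and 912 and 814 without HiC RIS replicate 1 or 2. Captured pairs gave 0 calls with limma (55030 at an unadjusted p below 0.05), 110 without the trend, 42376 with voom on recovered contacts and 24454 with voom and factors, the last giving 12523 and 15261 without cHiC growing replicate 1 or 2 and 10293 and 21003 without cHiC RIS replicate 1 or 2.

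Gene body contact gave 531 calls, 2648 on recovered contacts, 122 without the trend, 1261 among 3055 genes of 4 bins or more, 0 with the replicate block, 0 with the duplicate class as a block and 0 to 2 with 1 library left out. Contact within a bin gave 7637 calls, 17455 on recovered contacts, 3140 with the replicate block and 1 to 2348 with 1 library left out. Near contact gave 16056 calls and 5546 to 11806 with 1 library left out, far contact 18845 and 9510 to 15495, and the A/B score 12414 and 6508 to 13259, with 7928 at 200 kb.

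Directions turned for COL1A1 far contact to 2 Mb (-0.32), its contact within the bin on recovered contacts (0.12) and its A/B score at 200 kb (-0.0039), and for COL1A2 insulation with a 1 Mb window (0.021). COL3A1 near contact turned at 40 to 200 kb (-0.0081), at 80 to 400 kb (-0.0031) and on recovered contacts (-0.0094), and was -0.0050 to 0.067 with 1 library left out. Its gene body contact was -0.0027 to 0.16. Insulation relative to the bins within 1 Mb turned at COL3A1 (-0.018) and COL5A2 (-0.0099). For COL4A1/COL4A2, near contact turned with the expected value over all chromosomes (-0.033) and with the replicate block (-0.037), and was -0.037 to 0.087 with 1 library left out. Its insulation turned with 7 bins (0.054) and was -0.11 to 0.059 with 1 library left out. COL4A1 body contact turned with the expected value over all chromosomes (-0.042) and was -0.063 to 0.12 with 1 library left out. Contact of COL4A1 with COL4A2 was 0.082 on recovered contacts and -0.091 to 0.084 with 1 library left out. Contact of COL4A2 with its domain was 0.085 and -0.097 to 0.070. The labels do not say that replicate numbers pair the libraries. With 2 RIS libraries, whose deviations mirror each other, their correlations with growing libraries cannot settle it.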
